A study of Mus musculus with 8 samples.

Results

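The 52 genes described here are the Rab genes of mouse cortex, taken as every gene whose symbol begins with Rab and a digit among the 10601 genes of the deposited results table. Of these, 45 encode Rab GTPases. The other 7 encode proteins named after the Rab they bind or regulate, namely Rab11fip2, Rab11fip3, Rab11fip4, Rab11fip5, Rab3gap1, Rab3gap2 and Rab3ip. All 52 had at least 10 RPM (a value scaled to the sum of its column) in 1 mouse or more, and 50 had it in every mouse. The exceptions were Rab39, which reached it in bigenic mouse 2 alone, and Rab40b, which missed it in that mouse alone. A further 14 loci whose symbols follow the same rule in the GENCODE annotation, Rab13, Rab17, Rab27a and Rab32 among them, were not analysed here.

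Poly(A)+ RNA of brain cortex was sequenced from 4 bigenic and 4 nontransgenic C57BL/6 mice. Bigenic mice carried a Camk2a-tTa transgene and a tetO transgene for ΔNLS-hTDP-43, human TDP-43 with a mutated nuclear localization signal, which doxycycline represses. Nontransgenic controls came from crosses of the same kind and carried neither. Both groups left a doxycycline diet when 28 days old, and their right cortex was collected 10 days later. The Camk2a promoter drives the transactivator mainly in excitatory forebrain neurons, whereas the RNA came from the whole tissue, so fewer cells of a type and less RNA per cell cannot be told apart. With neither transgene in the controls, an effect of the transactivator alone and one of ΔNLS-hTDP-43 cannot be told apart either. Mice are numbered only to name them.

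Rab proteins are small GTPases that mark the membranes of the secretory and endocytic pathways. A guanine nucleotide exchange factor (GEF) loads a Rab with GTP, GTP-bound Rab recruits effectors such as tethers and motor adaptors that move, dock and fuse vesicles, and a GTPase-activating protein (GAP) returns it to the GDP-bound form. Geranylgeranyl transferase attaches the lipid anchors that hold a Rab on its membrane, and GDP dissociation inhibitor (GDI) extracts it again. In neurons, Rabs are best known for the release of synaptic vesicles, the transport of endosomes in axons and dendrites and the sorting of receptors back to the surface. TDP-43 itself binds RNA, with a preference for UG repeats.

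Reads on genes numbered 10.63 M to 31.93 M in bigenic and 20.55 M to 28.96 M in control mice, as estimated from the steps between the deposited values. Bigenic mouse 2 was the shallowest library and stood apart from the other bigenic mice on the first principal component of all 10588 genes tested (score 46.0, against 12.8 to 15.1). It held the highest or the lowest bigenic value for 44 of the 52 Rab genes, against 18 to 23 for the other bigenic mice. Of the marker lists, 6 of 13 neuronal genes were lower and 2 higher in bigenic mice, beside 15.4% lower and 20.5% higher over all genes tested. Lower too were 5 of 10 astrocyte, 6 of 10 microglial and 2 of 9 endothelial and pericyte genes, with none higher. Of 11 oligodendrocyte genes, 1 was higher and none lower. Of 16 choroid plexus genes listed, 6 passed the threshold of 10 RPM in 1 mouse or more, and 5 of these were higher. Kl, Prlr, F5 and Clic6 stayed below it in every control and passed through bigenic mice alone, so the filter favoured their higher calls. Summed choroid plexus markers ranged from 14275 to 29482 normalized counts in bigenic and from 6591 to 8221 in nontransgenic mice. Most of the nontransgenic sum was Enpp2 (mean 6602), which was not called. Most of the rise was Ttr (mean 724 in nontransgenic and 13603 in bigenic mice). Summed astrocyte markers (139885 to 165771 in bigenic, 175947 to 191468 in nontransgenic) and microglial markers (5479 to 7176 and 7368 to 8692) were lower without overlap. Summed neuronal markers overlapped between the groups (178885 to 240333 and 218314 to 236835) through bigenic mouse 2 alone. It had the highest sum of all mice, and the other bigenic mice all lay below the lowest control. The part of cell composition in the results on Rab genes was not tested.

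In bigenic cortex, 7 Rab genes were higher and 13 were lower, with 32 not called (limma on log2(normalized count + 1), Benjamini-Hochberg adjusted p-value below 0.05). Over all genes tested, 20.5% were called higher and 15.4% lower, or 35.9% in either direction. The corresponding shares of the Rab genes were 13.5%, 25% and 38.5%. Among the 45 GTPases, 4 rose and 12 fell. The median log2(fold change), bigenic minus nontransgenic, was -0.02 for the 52 Rab genes and 0.03 for all genes tested. The groups of mice did not overlap for any of the 20 called genes, nor for Rab39. With Rab39 counted, 8 Rab genes were higher and 13 lower without overlap (22.3% and 16.7% of all genes tested). Rab39 passed the threshold in bigenic mouse 2 alone, so the filter favoured its being higher. The largest rise was that of Rab11fip4 and the largest fall that of Rab40b. With 1 control left out there were fewer lower calls, namely 7, 9, 9 and 11 without nontransgenic mouse 1, 2, 3 and 4. Calls over all genes tested also dropped in these fits, from 35.9% to 26%, 25.2%, 25.1% and 32.2%. Calls that were kept whichever single mouse was left out numbered 5 of the 7 higher and 7 of the 13 lower.

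**Figure D1:**
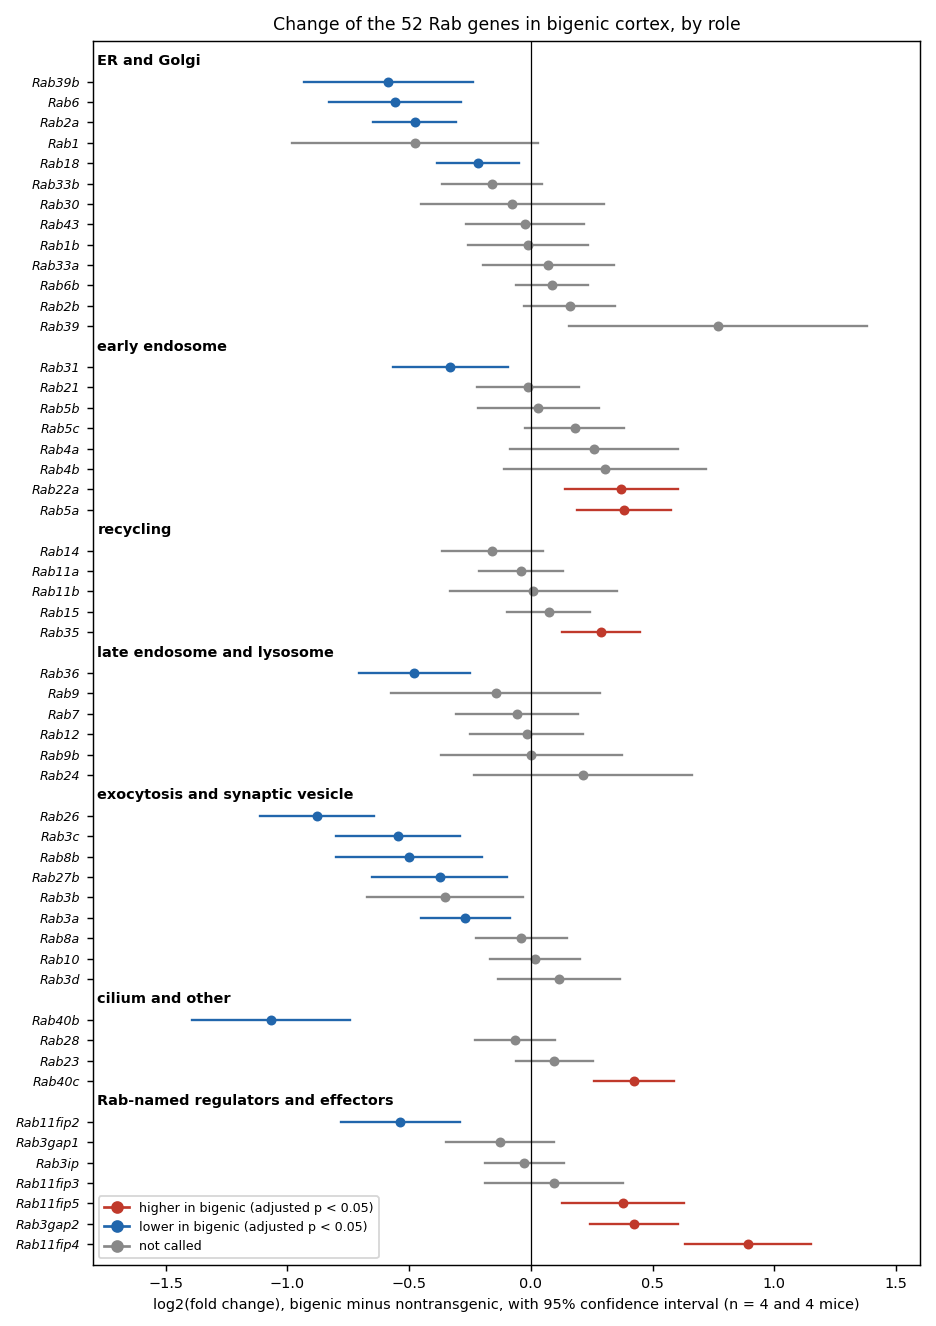
The horizontal axis is the log2(fold change), bigenic minus nontransgenic, with its 95% confidence interval (n = 4 and 4 mice), and each line is one of the 52 Rab genes, grouped by the role listed for it. The lower calls (blue, 13 genes) include 5 of the 9 exocytic Rabs and 4 of the 13 ER and Golgi Rabs, beside 15.4% of all genes tested. The higher calls (red, 7 genes) run from 0.29 for Rab35 to 0.89 for Rab11fip4.

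Rab genes differ widely in level, and levels of different genes are compared here only per kilobase of annotated exon. In nontransgenic cortex the highest were Rab6b (4826 normalized counts per kb), Rab3a (4195), Rab6 (2384), Rab2a (1769) and Rab1 (1685). These 5 genes made up 43.3% of the per-kilobase sum over the 45 GTPases. At the other end, Rab39 stood at 27.9, Rab3d at 62.6 and Rab36 at 71.7 normalized counts per kb. Exons of 13 Rab genes overlap those of another gene, mostly on the opposite strand. No source says whether counts used strand, so reads of such neighbours cannot be told apart. Among the called genes this concerns Rab3a, Rab5a, Rab6, Rab39b, Rab40c, Rab3gap2 and, on the same strand, Rab11fip5.

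Summed without regard to length, the GTPases came to 108523 ± 4532 normalized counts in bigenic and 118955 ± 5072 in nontransgenic mice (SD, n = 4). The bigenic sums ran from 103141 to 113627 and the nontransgenic sums from 113021 to 124551, so that bigenic mouse 3 reached just above the lowest control.

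The Rabs of exocytosis and synaptic vesicles were the group with the largest share of falls. Of 9 such genes, 5 fell and none rose, and the median log2(fold change) was -0.35. Rab3 proteins sit on synaptic vesicles and set their availability for release, Rab27b does so for dense-core and secretory granules, and Rab26 links synaptic vesicles to autophagy. Rab8 and Rab10 carry vesicles from the Golgi to the plasma membrane.

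Rab26 (chr17:24664740-24670692, mm9) had the smallest adjusted p-value of all Rab genes. It measured 270, 234, 291 and 257 normalized counts in bigenic mice 1 to 4 and 475, 435, 485 and 543 in nontransgenic mice 1 to 4. Every bigenic mouse lay far below the lowest control. Its log2(fold change) was -0.88 ± 0.10 (SE), with an adjusted p-value of 0.000287.

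Rab3c (chr13:110844395-111071109), a neuronal paralogue of Rab3a, measured 9793, 6924, 9669 and 8865 in bigenic and 14094, 12639, 12132 and 12192 in control mice. The highest bigenic mouse was well under the lowest control, and bigenic mouse 2 was the lowest of all. The log2(fold change) of Rab3c was -0.55 ± 0.11, with an adjusted p-value of 0.00509. Rab8b (chr9:66691479-66767512) fell too, from a mean of 1142 ± 120 to 813 ± 136 (SD, n = 4), with a log2(fold change) of -0.50 and an adjusted p-value of 0.0167. Its low value of 610 in bigenic mouse 2 lay apart from 870 to 895 in the other bigenic mice.

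Rab3c and Rab8b were also among the few Rab genes with a long TG repeat in an annotated exon. Runs of at least 6 consecutive TG units on the sense strand, read as UG in the RNA, were searched in the mm9 sequence of every gene tested. Exonic runs were found in 3 of 52 Rab genes (5.8%), against 11.0% of the 10246 genes tested that have a GENCODE entry, and all 4 runs lay in 3′ UTRs. They are shown because UG repeats are the sequence TDP-43 is known to bind, and each line gives the 4 bases before the run in lower case and then the run in capitals, up to 30 bases in all, 5′ to 3′ on the minus strand.
Rab3c, first run, of 17 units (shown chr13:110851591-110851620): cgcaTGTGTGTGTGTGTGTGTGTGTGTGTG
Rab3c, second run, of 21 units (shown chr13:110847046-110847075): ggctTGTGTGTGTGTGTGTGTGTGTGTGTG
Rab8b, run of 25 units (shown chr9:66693087-66693116): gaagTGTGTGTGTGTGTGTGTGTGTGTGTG
Rab3ip, run of 12 units, whole (chr10:116343246-116343275): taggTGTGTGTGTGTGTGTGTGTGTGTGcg

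Rab3c and Rab8b fell, whereas Rab3ip, which encodes the Rab8 exchange factor Rabin8, had a log2(fold change) of -0.03 and was not called. Exonic runs were thus in 2 of the 13 lower Rab genes (15.4%) and in none of the 7 higher. Over all genes tested, they were in 10.5% of the lower, 12.8% of the higher and 10.6% of the genes not called. Intronic runs were common everywhere: 75.0% of the Rab genes and 71.5% of all genes tested had at least one, as did 5 of the 7 higher and 10 of the 13 lower Rab genes. The presence of a run is a description of the sequence only. No binding data were used.

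Rab3a (chr8:73278578-73282576), the main Rab of synaptic vesicles, measured 6831, 7809, 8188 and 8221 in bigenic and 9673, 9164, 9825 and 8687 in control mice. The groups did not overlap, although the gap between bigenic mouse 4 and nontransgenic mouse 4 was narrow. The log2(fold change) of Rab3a was -0.27 ± 0.08, with an adjusted p-value of 0.0278. Its exons overlap those of Mpv17l2 on the opposite strand, a gene of 230 normalized counts in nontransgenic mice that was not called (log2(fold change) 0.02).

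Rab27b measured 1105, 817, 1259 and 1105 in bigenic and 1509, 1335, 1332 and 1324 in control mice. Bigenic mouse 3 came close to the 3 lower controls, and nontransgenic mouse 1 lay above the rest of its group. With a log2(fold change) of -0.37 ± 0.13 and an adjusted p-value of 0.0406, this call was lost in 6 of the 8 fits that left out a mouse, as was that of Rab3a in 4. Rab3b had a similar log2(fold change) of -0.35 and was not called (adjusted p-value 0.0804), with overlapping groups. Rab3d (0.12), Rab8a (-0.04) and Rab10 (0.02) were not called either.

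**Figure D2:**
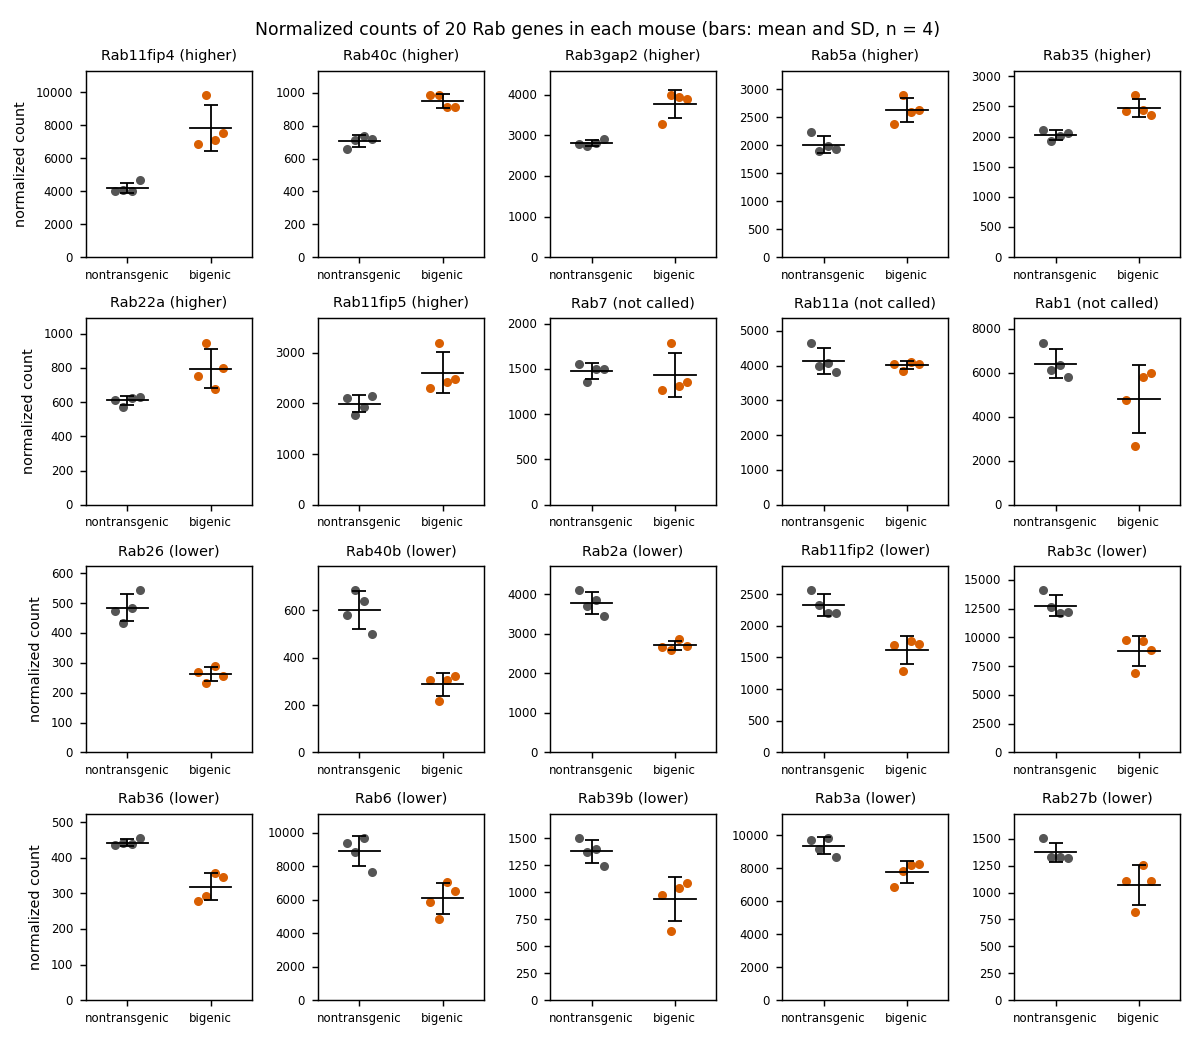
Each panel shows the normalized count of one gene in each of the 8 mice (points, nontransgenic grey and bigenic orange) on an axis from 0, with the mean and SD of each group (n = 4). Rab26 and Rab40b show the widest separation among the lower genes and Rab11fip4 among the higher genes, whereas Rab7, Rab11a and Rab1 overlap.

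Of the 13 ER and Golgi Rabs, 4 fell (30.8%, beside 15.4% of all genes tested) and none rose (beside 20.5%). Their median log2(fold change) was -0.08. Rab1 and Rab2 act in traffic between the ER and the Golgi, Rab6 in retrograde transport from and within the Golgi, and Rab18 on the ER and lipid droplets.

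Rab2a (chr4:8462791-8534925) measured 2666, 2591, 2869 and 2702 in bigenic and 4103, 3692, 3853 and 3441 in control mice. The bigenic values were tightly grouped and all lay below the controls. The log2(fold change) of Rab2a was -0.48 ± 0.08, with an adjusted p-value of 0.00134. Of the 50-base windows in its exons, 84.0% occur once in the genome, and reads from the rest were discarded by the authors as multiply mapping.

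Rab6 (chr7:107755924-107789782) measured 5850, 4860, 7046 and 6537 against 9361, 8839, 9682 and 7668. Bigenic mouse 3 and nontransgenic mouse 4 were nearest each other, with no overlap. Its log2(fold change) was -0.56 ± 0.12 and its adjusted p-value 0.00641. Mrpl48, whose exons overlap those of Rab6 on the opposite strand, had 320 normalized counts in nontransgenic mice and was not called.

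Rab39b (chrX:72817385-72823570), whose human counterpart is mutated in X-linked intellectual disability with parkinsonism, measured 971, 641, 1041 and 1085 in bigenic and 1501, 1366, 1401 and 1241 in control mice. All bigenic mice were below all controls, bigenic mouse 2 most of all. The log2(fold change) was -0.59 ± 0.16, with an adjusted p-value of 0.0160. Rab18 fell least of all called genes, from 3255 ± 73 to 2805 ± 220 (SD, n = 4), with a log2(fold change) of -0.22 and an adjusted p-value of 0.0477. This call was lost whenever a mouse other than bigenic mouse 2 was left out.

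Rab1, in contrast, was not called in spite of a log2(fold change) of -0.48. It measured 4766, 2672, 5837 and 6016 in bigenic and 7380, 6145, 6348 and 5819 in control mice. The value of bigenic mouse 2 was less than that of any other mouse by a wide margin, while bigenic mice 3 and 4 lay above nontransgenic mouse 4. Without bigenic mouse 2 the log2(fold change) of Rab1 was -0.22, with an adjusted p-value of 0.0968. Rab39 gave the opposite picture, with 168, 240, 102 and 99 against 80, 83, 85 and 84. All 4 bigenic mice were higher and very unequal, and the log2(fold change) of 0.77 ± 0.27 was just short of a call (adjusted p-value 0.0519). Rab39 was tested only because it passed the threshold in bigenic mouse 2, so the filter favoured a rise.

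The most abundant Rab gene per kilobase, Rab6b, which is enriched in brain, had a log2(fold change) of 0.09 and was not called. Only after quantile normalization was Rab6b called higher. The remaining ER and Golgi Rabs, namely Rab1b, Rab2b, Rab30, Rab33a, Rab33b and Rab43, had log2(fold changes) between -0.16 and 0.16 and none was called.

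Early endosomal Rabs were the group of GTPases with the highest median log2(fold change), 0.22. This median rested in part on Rab4a and Rab4b, whose higher values came mostly from bigenic mouse 2. Of 8 genes, 2 rose (25%, beside 20.5% of all genes tested) and 1 fell (12.5%, beside 15.4%). Rab5 proteins direct fusion of early endosomes, Rab4 proteins direct rapid recycling from them, and Rab22a and Rab31 act between early endosomes and the trans-Golgi network.

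Rab5a (chr17:53618559-53646996) measured 2382, 2902, 2590 and 2631 in bigenic and 2236, 1891, 1984 and 1937 in control mice. Every bigenic mouse was higher than every control, with nontransgenic mouse 1 closest. The change amounted to a log2(fold change) of 0.38 ± 0.09 for Rab5a, with an adjusted p-value of 0.00734. Only 60.1% of its 50-base exonic windows occur once in the genome, so its level is understated.

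Rab22a (chr2:173485261-173532844) measured 753, 947, 677 and 801 in bigenic and 610, 573, 624 and 631 in control mice. The controls were close together and all below the bigenic mice. Its log2(fold change) was 0.37 ± 0.10, with an adjusted p-value of 0.0204. Its closest relative Rab31 moved the other way, from 1942 ± 162 to 1550 ± 195 (SD, n = 4), with a log2(fold change) of -0.33 and an adjusted p-value of 0.0343. Rab4a (0.26), Rab4b (0.30), Rab5c (0.18), Rab5b (0.03) and Rab21 (-0.01) were not called. The values of Rab4a and Rab4b came mostly from bigenic mouse 2, and without it they were 0.10 and 0.09.

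Of the 5 recycling Rabs, Rab35 alone was called (20%, beside 35.9% of all genes tested). Rab35 (chr5:116081938-116097745), which acts in fast recycling to the plasma membrane, measured 2419, 2691, 2434 and 2354 in bigenic and 2102, 1921, 2010 and 2065 in control mice. The spread within each group was small and the groups did not overlap. On the log2 scale the difference was 0.29 ± 0.07 for Rab35, with an adjusted p-value of 0.0122. Rab11a, the main Rab of recycling endosomes, measured 4043, 3832, 4117 and 4058 against 4661, 3992, 4062 and 3825. Its groups overlapped fully, and the 95% confidence interval of its log2(fold change) ran from -0.21 to 0.13. Rab11b (0.01), Rab14 (-0.16) and Rab15 (0.07) were not called.

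Of the 6 Rabs of late endosomes and lysosomes, 1 was called (16.7%, beside 35.9% of all genes tested). Rab36 (chr10:74499803-74517493), a Rab of late endosomes and the Golgi, measured 278, 294, 358 and 347 in bigenic and 435, 441, 440 and 456 in control mice. The controls were nearly identical and all above the bigenic mice. Limma gave a log2(fold change) of -0.48 ± 0.10 for Rab36, with an adjusted p-value of 0.00573. Rab7, which directs fusion of late endosomes with lysosomes, measured 1269, 1791, 1308 and 1358 against 1558, 1352, 1500 and 1496. Bigenic mouse 2 was the highest of all mice and the other bigenic mice were among the lowest, and the log2(fold change) was -0.06 with a 95% confidence interval from -0.31 to 0.20. Uniquely occurring windows made up 64.0% of Rab7, and its exons overlap Gm5577 on the opposite strand, whose 2 listed transcripts both fell, from 192 to 83.0 and from 195 to 84.8 normalized counts. Rab9, Rab9b, Rab12 and Rab24 had log2(fold changes) between -0.14 and 0.21 and were not called.

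Rab40b and Rab40c, which carry a SOCS box and serve as subunits of ubiquitin ligases, changed in opposite directions. Rab40b (chr11:121217435-121249565) measured 308, 217, 305 and 321 in bigenic and 580, 685, 640 and 500 in control mice. Each bigenic mouse was well below each control. This was the largest fall among the Rab genes, with a log2(fold change) of -1.07 ± 0.15, 0.477 of the control level, and an adjusted p-value of 0.000594. Rab40c (chr17:26019059-26056672) measured 987, 986, 913 and 913 against 658, 715, 740 and 718. Its bigenic values were all above its control values, with a log2(fold change) of 0.42 ± 0.07 and an adjusted p-value of 0.00211. Rab23 (0.10) and Rab28 (-0.07), which act in cilia, were not called.

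**Figure D3:**
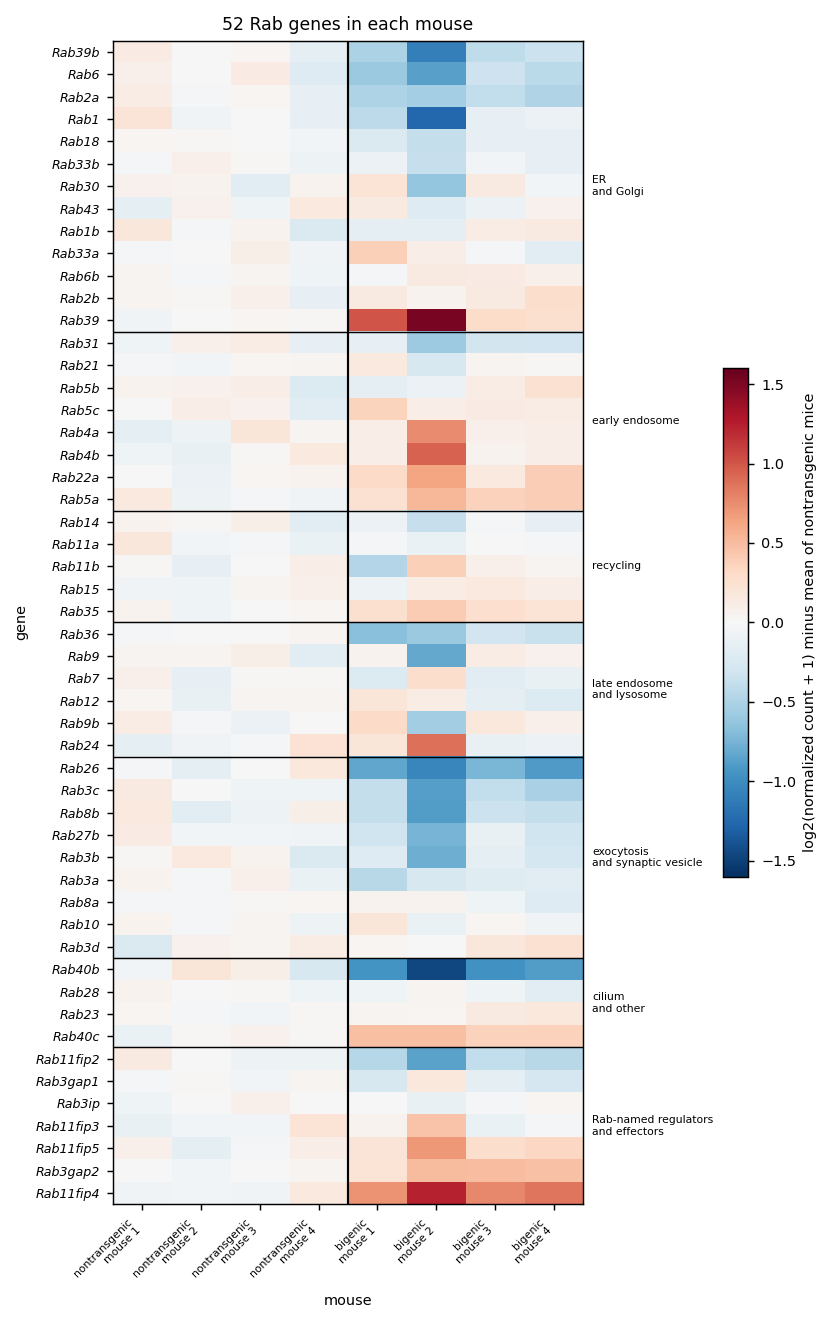
Rows are the 52 Rab genes grouped by role and columns are the 8 mice, and colour gives log2(normalized count + 1) minus the mean of the nontransgenic mice. In the rows of the 20 called genes the 4 bigenic mice lay on one side of the controls, and bigenic mouse 2 held the highest or the lowest bigenic value for 44 of the 52 genes.

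Among the 7 genes named after a Rab, 3 rose (42.9%, beside 20.5% of all genes tested) and 1 fell (14.3%, beside 15.4%). Rab11fip proteins bind Rab11 and link recycling endosomes to motors, and Rab3gap1 and Rab3gap2 form one complex that inactivates Rab3 and activates Rab18.

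Rab11fip4 (chr11:79404714-79511525) showed the largest rise of all. It measured 6861, 9838, 7093 and 7537 in bigenic and 4030, 4042, 4005 and 4651 in control mice. The lowest bigenic mouse was far above the highest control, and bigenic mouse 2 was the highest. The change amounted to a log2(fold change) of 0.89 ± 0.12 for Rab11fip4, 1.86 times the control level, with an adjusted p-value of 0.000444.

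Rab11fip2 (chr19:59978787-60019557) measured 1688, 1284, 1764 and 1710 in bigenic and 2560, 2333, 2200 and 2198 in control mice, with all bigenic mice lower. Its log2(fold change) was -0.54 ± 0.11 and its adjusted p-value 0.00475. Rab11fip5 (chr6:85284957-85324628), which belongs to the same class, rose instead. It measured 2297, 3195, 2417 and 2487 against 2100, 1778, 1935 and 2138, so that the groups were separate but close. On the log2 scale the difference was 0.38 ± 0.11 for Rab11fip5, with an adjusted p-value of 0.0256. Rab11fip3 (0.09) was not called.

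Rab3gap2 (chr1:187028047-187110622), the non-catalytic subunit, measured 3271, 3993, 3951 and 3893 in bigenic and 2785, 2731, 2814 and 2907 in control mice. The controls were tightly grouped below all bigenic mice. Limma gave a log2(fold change) of 0.42 ± 0.08 for Rab3gap2, with an adjusted p-value of 0.00332. Rab3gap1, the catalytic subunit, had a log2(fold change) of -0.13 and was not called with all mice, and without bigenic mouse 2 it was lower by -0.23 with an adjusted p-value of 0.00872.

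Since close relatives often differed, the log2 ratio of the members of a pair was compared within each mouse, which removes any scaling of the mouse. Of 29 pairs listed, 23 had both members tested. An exact two-sided permutation test over the 70 arrangements of the mice has a smallest possible p of 0.0286, and 12 of the 23 pairs reached it. After adjustment over the 23 pairs these 12 had a p of 0.0548, so no pair passed the threshold of 0.05. Since no p can be smaller, a pair can pass only if enough other pairs also reach the smallest p. The adjusted p therefore cannot decide on any single pair. The largest differences were those of Rab40b over Rab40c, whose mean log2 ratio was -1.74 in bigenic and -0.24 in nontransgenic mice, and of Rab39 over Rab39b (-2.68 and -4.03). Since Rab39 passed the threshold in bigenic mouse 2 alone, the filter favoured a higher ratio of Rab39 over Rab39b in bigenic mice. Rab11fip2 over Rab11fip5 went from 0.23 in nontransgenic to -0.69 in bigenic mice, Rab11fip3 over Rab11fip4 from -0.69 to -1.49, and Rab22a over Rab31 from -1.67 to -0.97. Rab6 over Rab6b, Rab2a over Rab2b, Rab1 over Rab1b, Rab8a over Rab8b, Rab3a over Rab3d, Rab3c over Rab3d and Rab3gap1 over Rab3gap2 were the other pairs at the smallest p. For Rab11a over Rab11b (p = 0.83, exact), Rab3a over Rab3b (p = 0.743, exact) and Rab4a over Rab4b (p = 0.600, exact), the difference between the groups was within the spread of the mice. The pairs share genes and are not independent of each other.

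**Figure D4:**
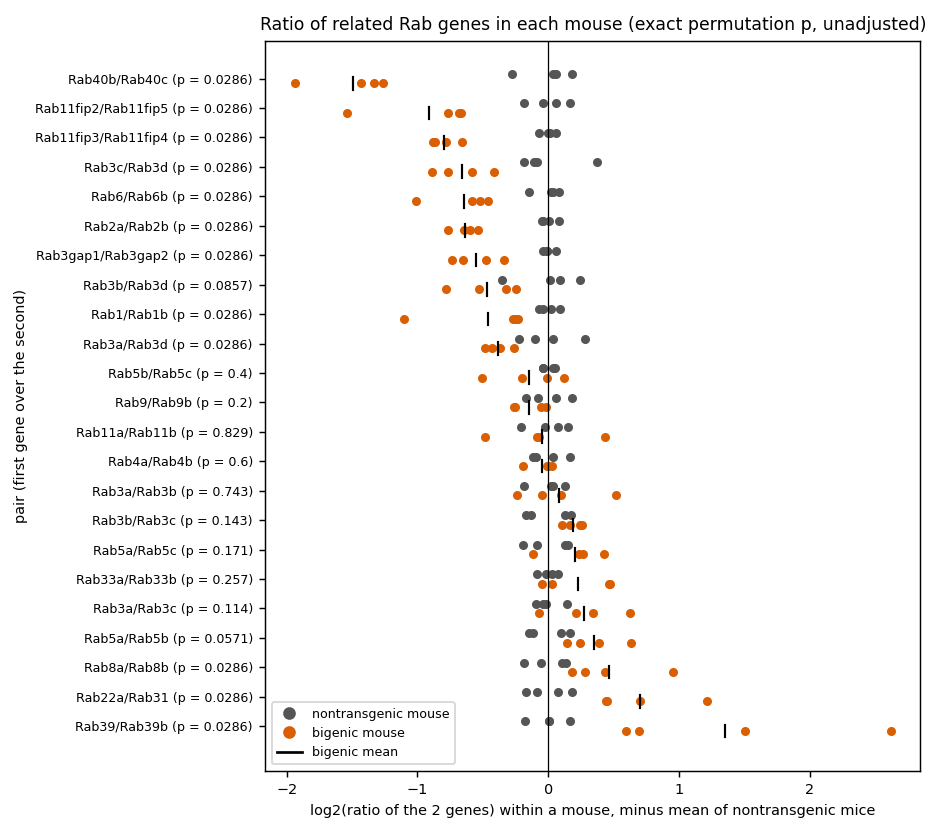
For each of 23 pairs of related genes, points give the log2 ratio of the first gene over the second within a mouse, minus the mean of the nontransgenic mice (grey nontransgenic, orange bigenic, line at the bigenic mean). In the 12 pairs at the smallest exact p of 0.0286 the orange and grey points do not overlap, from Rab40b over Rab40c at the top to Rab39 over Rab39b at the bottom.

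Among the called genes that act on Rabs, more were higher than lower. Of 154 partner genes listed, 128 were tested, and 45 of these were higher (35.2%) and 12 lower (9.38%), beside 20.5% and 15.4% of all genes tested. The other 71 were not called. Their median log2(fold change) was 0.16. Effectors made up 23 of the 45 higher genes. Of the 50 effectors tested, 6 were lower, and their median was 0.31.

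Among effectors, Bicd2, which ties Rab6 vesicles to dynein, measured 4187, 5313, 4365 and 4784 in bigenic and 2765, 2774, 2618 and 2955 in control mice, 1.67 times the control level (adjusted p-value 0.000287). Rabep1 (rabaptin), an effector of Rab5, was 1.32 times the control level (adjusted p-value 0.00157). Fyco1, which links Rab7 vesicles to kinesin, measured 1034, 976, 1037 and 1008 against 1500, 1673, 1469 and 1674 and fell to 0.643 of the control level (adjusted p-value 0.00027). Rilpl1, an effector of Rab8 and Rab10, fell to 0.475 (adjusted p-value 0.000763). Both groups of mice were separate for each of these 4 genes.

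Of 37 GEFs tested, 13 were higher (35.1%, beside 20.5% of all genes tested) and 4 lower (10.8%, beside 15.4%). Their median log2(fold change) was 0.09. Dennd1b, an exchange factor for Rab35, measured 970, 864, 1050 and 1021 in bigenic and 465, 507, 519 and 523 in control mice, 1.93 times the control level (adjusted p-value 6.22e-05). Trappc5, a core subunit of the TRAPP complexes that activate Rab1, was 1.78 times the control level (adjusted p-value 6.76e-05). Rin1, an exchange factor for Rab5, fell to 0.630 (adjusted p-value 0.000793), and Ccz1, part of the exchange factor for Rab7, to 0.805 (adjusted p-value 0.0119). Unlike Trappc5, its fellow subunit Trappc1 was lower, at 0.608 of the control level (adjusted p-value 0.0171).

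Of 33 GAPs tested, 8 were higher, a share of 24.2% that is close to the 20.5% of all genes tested. Only 1 was lower (3.03%, beside 15.4%), and the median was 0.11. Sgsm3 (1.45 times the control level, adjusted p-value 0.000733) and Evi5l (1.34 times, adjusted p-value 0.00198) were higher, and Tbc1d24, which is mutated in epilepsies, was lower at 0.850 (adjusted p-value 0.0361). Of the 8 genes of prenylation and GDI, 2 were called (25%, beside 35.9% of all genes tested). Rabggta, the alpha subunit of the geranylgeranyl transferase, was 1.54 times the control level (adjusted p-value 0.0157).

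**Figure D5:**
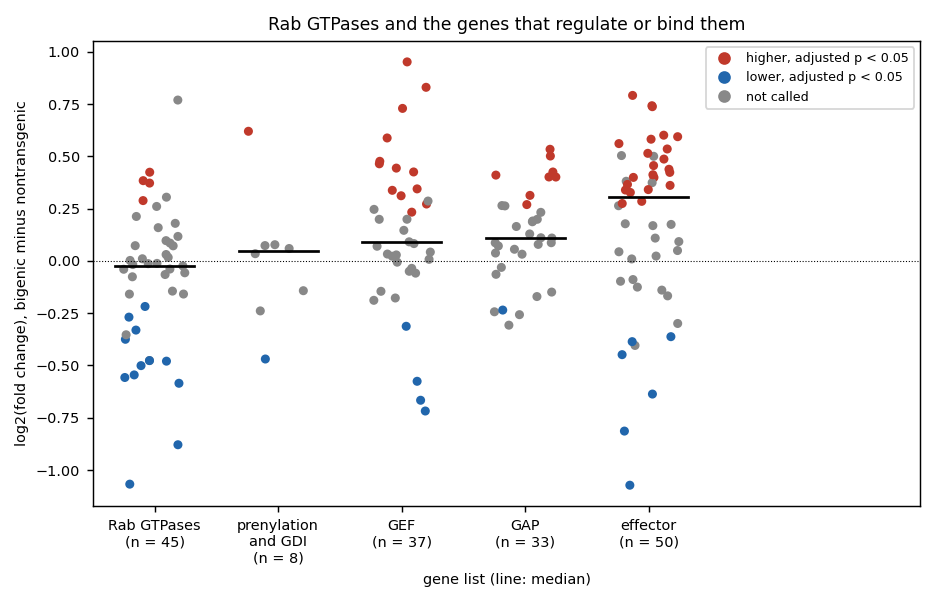
Each point is a gene, with its log2(fold change), bigenic minus nontransgenic, on the vertical axis (red higher, blue lower, grey not called), for the 45 Rab GTPases and 4 lists of genes that act on them, and lines mark medians. The median was -0.02 for the GTPases and 0.31 for the effectors.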

How the data were processed

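The authors trimmed adaptors with cutadapt, mapped 50-base single-end reads to mm9 with Bowtie 0.12.7, kept uniquely mapping reads, counted them per exon with bedtools and merged exons into genes. Use of strand and the scaling are not given in the sources used here. The deposited signal values are gene counts scaled by one factor for each mouse and rounded (normalized counts; 28662 transcripts), so they were not tested as raw counts. The authors' DESeq2 table was used for symbols only, and its log2 fold changes, p-values and q-values, made by the authors, were not used.

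Rab members, role lists and partner lists were chosen with earlier results of these data known. Genes with 10 RPM in at least one mouse (10588) were compared on log2(normalized count + 1) with limma 3.58.1 (R 4.3.3, trend, two-sided, Benjamini-Hochberg over all genes, threshold 0.05). This scale understates changes of low genes. Values per mouse are given for up to 8 higher and 8 lower members with the smallest adjusted p-values and for Rab1, Rab3a, Rab5a, Rab7, Rab11a and Rab27b, and up to 2 called partners per list and direction are named, except 1 that is not reported here. Rab18, Rab31, Rab39 and Trappc1 were added after their values were seen. Positions, exon lengths and repeats come from the mm9 genome and GENCODE. Scripts were tested on simulated data. Nothing in the labels says that samples of a group came from separate litters or batches, so p-values measure the spread between these mice. A count of 3 reads corresponds to 1.94 to 6.20 normalized counts, and every Rab value was at least 80.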

Additional observations from a re-analysis of the deposited data

Results flagged for a closer look

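In each group of 4 mice, the highest or lowest value was compared with the other 3 for all 52 Rab genes (104 groups), and 14 groups held a value far from the rest by Dixon's 95% criterion. Chance flags about 1 in 20 groups, or 5.2 here. Bigenic mouse 2, the shallowest library, held 7 of the 14. It was low for Rab11fip2 (1284 normalized counts, others 1688 to 1764), Rab40b (217, others 305 to 321), Rab8b (610, others 870 to 895) and Rab9 (335, others 615 to 643). It was high for Rab4a (1090, others 683 to 696), Rab4b (949, others 509 to 530) and Rab7 (1791, others 1269 to 1358). Rab11fip2, Rab40b and Rab8b were still lower in bigenic mice without it.

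The other 7 values were spread over 5 mice. Bigenic mouse 1 was low for Rab3gap2 (3271) and high for Rab5c (1869). Nontransgenic mouse 4 was high for Rab11fip4 (4651) and low for Rab5b (706). Nontransgenic mouse 1 was high for Rab27b (1509), nontransgenic mouse 2 was low for Rab12 (2190), and nontransgenic mouse 3 was low for Rab30 (411).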

How the results depend on the processing

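None of the 20 called Rab genes changed direction under any of the 15 alternatives, apart from Rab40b not being tested when 10 RPM was asked of every mouse. Higher calls numbered 5 to 8 and lower calls 7 to 14 when 1 mouse was left out, against 7 and 13 with all mice. Without nontransgenic mouse 1 the 7 lower calls were Rab2a, Rab3c, Rab6, Rab26, Rab36, Rab40b and Rab11fip2. Rab8b and Rab39b were lost without nontransgenic mouse 1 alone, Rab22a without nontransgenic mouse 1 or 2, Rab11fip5 without nontransgenic mouse 2 or 3, Rab3a without nontransgenic mouse 1, 2 or 3 or bigenic mouse 1, and Rab31 without nontransgenic mouse 1, 2 or 3 or bigenic mouse 3 or 4. Rab39, which was tested only through its value in bigenic mouse 2, was gained as higher without bigenic mouse 3 or 4. Rab3gap1 was gained as lower without bigenic mouse 2. With limma array weights 9 Rab genes were higher and 16 lower. Partner genes called numbered 42 to 69 with 1 mouse left out, against 57 with all mice. Over all genes tested, 25.1% to 45.5% were called in those fits, against 35.9% with all mice. The array weights gave 87 called partner genes, and 61% of all genes were called with them. Without a filter on low values Rab3a, Rab18 and Rab27b were no longer called. After rescaling all mice to one total Rab18, Rab27b and Rab31 were not called, and Rab39 was gained as higher. Quantile normalization gave 8 higher and 13 lower Rab genes, with Rab6b gained as higher. No paralogue pair passed with a pseudocount of 10 or 0.1 or with quantile normalization. A pass would again have needed many pairs at the smallest p, so this says little about any single pair. Pairs were not tested with a mouse left out, since the smallest possible p is then 0.0571. No paired analysis was possible because the columns carry animal numbers that the groups do not share. Low unique mappability limits Rab5a, Rab5b (39.9% of windows), Rab7 and Rab11b (51.8%).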
